A study of Mus musculus with 9 samples.

Results

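Messenger RNAs that mark fat cells were followed library by library in RNA sequencing of mouse gastrocnemius, the large calf muscle. They were taken by gene symbol, and all 10 of 10 were found among the 23284 genes of the count table. The white markers were Adipoq, Lep, Retn, Plin1, Plin4, Cidec and Fabp4, and the brown markers were Ucp1, Cidea and Elovl3. The genes were chosen by values already seen in these libraries, namely their levels per library and the difference between knockout and control, so those values are given as a description with no test.

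The 5 control libraries carried a Gprc6a gene flanked by loxP sites (Gprc6a fl/fl), and the 4 knockout libraries carried the same floxed gene together with Mck-Cre, in which the promoter of muscle creatine kinase drives Cre. That promoter is known to be active in striated muscle fibres. All mice were 3 months old, of a mixed 129/C57/BL6 background, and all muscle was taken after exercise. No library with Cre alone and none from unexercised muscle was included, so an effect of Cre and one of the deletion cannot be told apart. The labels do not state whether each library was a separate animal. Knockout titles name Gprc5a, whereas the genotype and description fields of those samples name Gprc6a. Gprc6a itself had 0 counts in every library, which allows at most 0.159 CPM (edgeR counts per megacount, with library totals scaled by TMM) in any one, so the counts do not check the genotype. Total counts per library lay between 19522947 and 25608659. The 10 muscle fibre genes, Acta1, Ckm and Myh4 among them, summed to between 182000 and 255000 CPM in each library, as the tissue label states.

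White adipocytes store triglyceride in a single large droplet and release fatty acids and hormones. Brown adipocytes hold many small droplets and burn fatty acids for heat through Ucp1, which lets protons leak across the inner mitochondrial membrane. Both kinds are known to make Adipoq, Plin1, Cidec and Fabp4, so these genes mark adipocytes in general more than white ones. Fat lies between and within the muscles of the hindlimb, and brown adipocytes have been described among the leg muscles of some mouse strains.

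Most of the markers were highest in controls 4 and 5. In 7 of 10 members (Ucp1, Cidea, Adipoq, Plin1, Cidec, Retn and Fabp4) both of these libraries lay above each of the other 7. This held for 297 of 13198 genes tested, or 2.25%, but the members were picked with this pattern in view and nothing is read from the comparison. Elovl3, Plin4 and Lep were the exceptions. In bulk muscle, a difference in the number of adipocytes and one in the amount of these RNAs per adipocyte cannot be told apart.

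Ucp1, the uncoupling protein, separated the libraries most. It stood at 0.363, 0.607, 0.233, 16.6 and 7.03 CPM in controls 1 to 5, and at 0.692, 0.211, 0.0948 and 0.424 CPM in knockouts 1 to 4. Control 4 was 24.0 times and control 5 was 10.2 times the highest of the other 7 libraries, in all of which Ucp1 was near the limit of detection. Those levels rest on 366 counts in control 4 and 141 in control 5, against 2 to 16 counts elsewhere. The exact Poisson 95% interval was 14.9 to 18.4 CPM for control 4 and 5.92 to 8.29 CPM for the control 5 library, while the upper bound of the highest other library, knockout 1, was 1.12 CPM. Counting error is all that these intervals cover. They may be too narrow even for that, because reads from amplified material do not each stand for a molecule. Controls 1 to 3 and the knockouts overlapped.

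Cidea, a protein of the lipid droplet surface that is abundant in brown fat, had the same 2 libraries on top. It was at 1.59, 1.38, 2.02, 18.4 and 10.3 CPM in controls 1 to 5 and at 1.82, 1.98, 0.996 and 1.11 CPM in knockouts 1 to 4. Control 4 was 9.13 times and control 5 was 5.11 times the highest of the other libraries. Unlike Ucp1, Cidea was clearly detected everywhere, with at least 21 counts in each library.

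Elovl3, an elongase of very long chain fatty acids that cold induces in brown fat, did not follow them. It was at 0.726, 1.58, 1.44, 1.36 and 2.84 CPM in controls 1 to 5 and at 0.821, 1.6, 1.42 and 0.901 CPM in knockouts 1 to 4. Control 4, the library richest in Ucp1 and Cidea, lay in the middle of this range, and control 5 was 1.78 times the next library, knockout 2. With 16 to 57 counts per library the order of the others is not resolved. The brown markers therefore did not share a single order among the libraries.

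**Figure D1:**
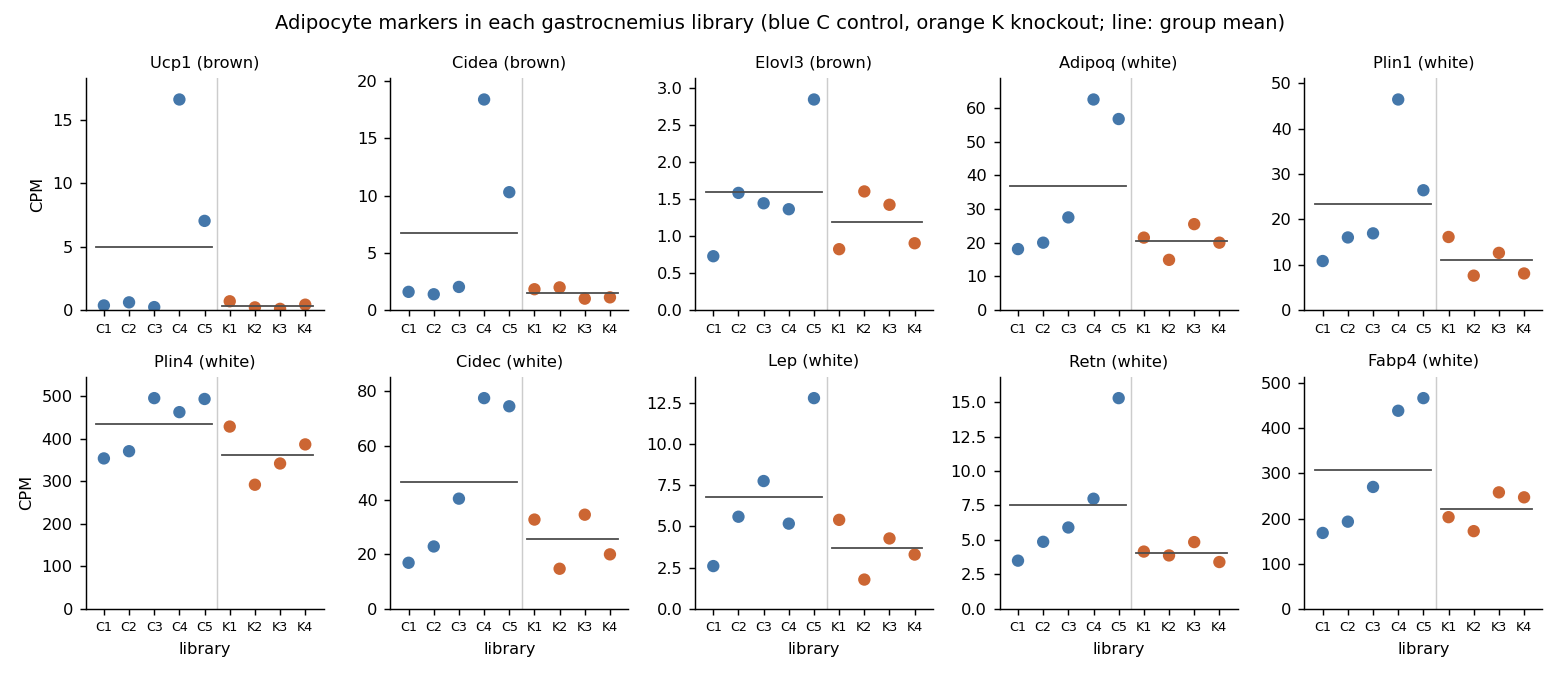
CPM (y axis) of the 10 markers in each library (x axis, C1 to C5 controls and K1 to K4 knockouts), each point 1 library and each line a group mean, with a separate linear axis from 0 for each gene. Ucp1 reaches 16.6 CPM (control 4) and 7.03 CPM (control 5) and is at most 0.692 CPM elsewhere, while Plin4 stays between 292 and 496 CPM in every library.

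The hormone genes Adipoq, Lep and Retn differed in how they ranked controls 4 and 5. Adipoq, which encodes adiponectin, was at 18.1, 20.0, 27.5, 62.5 and 56.7 CPM in controls 1 to 5 and at 21.5, 14.9, 25.5 and 20.0 CPM in knockouts 1 to 4. Controls 4 and 5 were 3.13 and 2.84 times the median of the other 7 libraries. This was a far smaller step than that of Ucp1, at 45.8 and 19.4 times its median there. Lep, which encodes the satiety hormone leptin, was at 2.59, 5.59, 7.76, 5.17 and 12.8 CPM in controls 1 to 5 and at 5.4, 1.77, 4.27 and 3.29 CPM in knockouts 1 to 4. Control 5 was thus the highest for Lep, but control 4 was below controls 2 and 3 and below knockout 1. Retn, which encodes resistin, a hormone of white adipocytes in mice, was at 3.49, 4.86, 5.9, 7.99 and 15.3 CPM in controls 1 to 5 and at 4.15, 3.87, 4.84 and 3.39 CPM in knockouts 1 to 4. Control 5 stood at 2.59 times the highest of the other 7 libraries and control 4 at 1.35 times.

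The upstream sequences of Ucp1, Adipoq and Lep are shown because these genes part company in control 4, where Ucp1 and Adipoq were highest and Lep was not. RefSeq promoters on GRCm38.p6 were searched for 7 of 10 members. The promoter set held none for Fabp4 and Elovl3, and Cidea was left out of the search. The stretches below are the 250 bases before the annotated start, all on the plus strand, at chr8:83290098-83290347 for Ucp1, chr16:23146286-23146535 for Adipoq and chr6:29059971-29060220 for Lep. Capitals mark matches on either strand to the motifs searched, and the same stretch was searched in all 32851 promoter entries.
Ucp1: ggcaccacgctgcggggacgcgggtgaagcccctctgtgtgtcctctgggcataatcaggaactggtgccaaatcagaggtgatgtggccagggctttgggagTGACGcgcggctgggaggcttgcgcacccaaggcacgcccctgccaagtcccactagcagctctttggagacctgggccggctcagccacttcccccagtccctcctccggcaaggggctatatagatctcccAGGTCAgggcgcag
Adipoq: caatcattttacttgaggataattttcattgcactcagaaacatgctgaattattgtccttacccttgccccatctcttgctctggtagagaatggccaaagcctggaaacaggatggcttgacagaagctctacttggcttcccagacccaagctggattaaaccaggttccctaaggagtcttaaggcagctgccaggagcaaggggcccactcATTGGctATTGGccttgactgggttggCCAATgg
Lep: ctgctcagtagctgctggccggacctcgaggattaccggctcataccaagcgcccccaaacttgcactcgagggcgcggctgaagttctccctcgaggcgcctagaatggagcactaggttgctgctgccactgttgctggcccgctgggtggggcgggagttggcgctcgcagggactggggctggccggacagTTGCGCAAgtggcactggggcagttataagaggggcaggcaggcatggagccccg
The Ucp1 stretch held the core of the cyclic AMP response element, TGACG, present in 17.8% of all promoters, and the nuclear receptor core site AGGTCA, present in 14% of them. The Adipoq stretch held the CCAAT box, CCAAT, at 3 places, a motif present in 33.8% of promoters. The Lep stretch held the C/EBP motif TTGCNNAA, present in 9.56%, as a palindrome that matches both strands. The TATA box TATAAA, present in 12.4%, and the direct repeat of receptor sites called DR1, present in 0.338%, had no match in these windows. Among the 7 members searched, C/EBP matches also stood upstream of Plin1, at 2 places, and of 1 of the 2 starts of Cidec. A match describes letters only and no binding was measured.

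Genes of the lipid droplet followed Adipoq to different degrees. Plin1, the perilipin that guards the droplet of adipocytes and controls access of lipases, was at 10.8, 16.0, 16.9, 46.4 and 26.4 CPM in controls 1 to 5 and at 16.1, 7.58, 12.6 and 8.06 CPM in knockouts 1 to 4. Cidec, which fuses droplets into one large droplet, was at 16.9, 22.9, 40.5, 77.5 and 74.5 CPM in controls 1 to 5 and at 32.8, 14.7, 34.6 and 20.0 CPM in knockouts 1 to 4. In both genes controls 4 and 5 led and the other controls overlapped the knockouts, with knockout 2 the lowest of all. Plin4, a perilipin of nascent droplets that muscle also makes, was at 354, 371, 496, 463 and 494 CPM in controls 1 to 5 and at 429, 292, 342 and 387 CPM in knockouts 1 to 4. Its highest library was 1.7 times its lowest, and control 3 rather than control 4 or 5 was on top. Fabp4, the fatty acid carrier of adipocytes that capillary endothelium also makes, was at 168, 193, 270, 439 and 467 CPM in controls 1 to 5 and at 203, 172, 258 and 247 CPM in knockouts 1 to 4. Controls 4 and 5 were 1.62 and 1.73 times the highest of the other 7 libraries for Fabp4.

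Per kilobase of the longest coding transcript in GENCODE M21, the order of the median levels over the 9 libraries ran from Fabp4 (275 CPM per kilobase) and Plin4 (67.2) through Cidec (19.1), Adipoq (16.7), Plin1 (5.68) and Retn (4.25) to Cidea (1.63), Lep (1.59), Elovl3 (0.756) and Ucp1 (0.259). Fabp4 and Plin4 each lay above the next gene in every library, while the ranges of all later neighbours in this order overlapped. Single libraries departed from this order, controls 4 and 5 among them. In control 4 Ucp1 stood at 10.2 and Cidea at 16.5 CPM per kilobase, the latter level with Plin1 at 16.5. Both were above Retn at 7.01 and Lep at 1.59 there. In control 5 Ucp1 stood at 4.3, above Lep at 3.93, and Cidea at 9.26, near Plin1 at 9.36 and below Retn at 13.4. The muscle actin Acta1 had a median level of 28600 CPM per kilobase on this scale. The authors' gene models on mm9 may differ in length from these transcripts.

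The share of brown against general adipocyte RNA was read within each library, where the scaling of libraries plays no part. Ucp1 made up 21.0% of the counts of Ucp1 and Adipoq together in control 4 (exact 95% binomial interval 19.1 to 23.0%) and 11.0% in control 5 (9.36 to 12.9%). In controls 1 to 3 the share was 1.97%, 2.95% and 0.839%, and in knockouts 1 to 4 it was 3.11%, 1.4%, 0.37% and 2.08%. The interval of control 4 did not overlap that of control 5, and both lay above those of the other 7 libraries, whose highest upper bound was 5.01% in knockout 1. Like the Poisson intervals, these cover counting error alone, and Ucp1 was chosen with its level per library already seen. By counts, controls 4 and 5 held more Ucp1 per Adipoq, and not only more of both.

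Cidea was also highest per Adipoq in these libraries, with 29.5 counts per 100 Adipoq counts in control 4 and 18.2 in control 5. As a share of Cidea and Adipoq together, the interval of control 4 (20.8 to 24.8%) lay above all others. That of control 5 (13.5 to 17.4%) overlapped that of knockout 2 (8.76 to 15.3%). Counting error is again all that these intervals cover. In the other libraries Cidea stood between 3.9 and 13.3 counts per 100 of Adipoq, highest in knockout 2. Elovl3 went the other way in control 4, at 2.18 counts per 100 of Adipoq, the lowest of the 9 libraries, against 5.01 in control 5 and 3.82 to 10.8 in the rest. Lep was also lowest there, at 8.27 counts per 100 of Adipoq in control 4, against 22.6 in control 5 and 11.9 to 28.2 in the other libraries. Retn stood at 12.8 per 100 of Adipoq in control 4 and at 27.0 in control 5, the lowest and the highest of the 9 libraries. Cidec kept the closest ratio to Adipoq, between 93.2 and 152 counts per 100. In CPM, control 4 and control 5 were similar in Adipoq, Cidec, Plin4 and Fabp4 and differed in Ucp1, Cidea, Elovl3, Plin1, Lep and Retn.

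**Figure D2:**
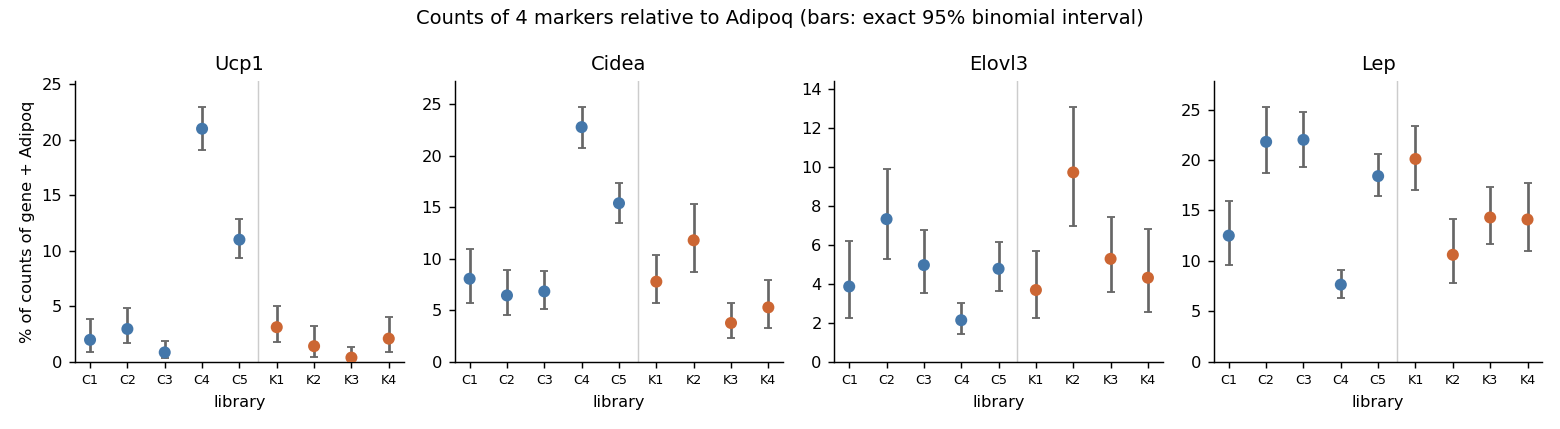
Share of the counts of Ucp1, Cidea, Elovl3 or Lep in the sum of that gene and Adipoq (y axis, percent) in each library (x axis, C controls, K knockouts), with exact 95% binomial intervals as bars. The bars cover counting error alone. Ucp1 reaches 21.0% in control 4 and 11.0% in control 5, while Lep has its lowest share in control 4.

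Knockout and control libraries were then set side by side, first with all 9 libraries and then without controls 4 and 5. Over all genes, edgeR's quasi-likelihood test with Benjamini-Hochberg adjustment called 0 of 13198 genes lower (0.0%) and 0 higher (0.0%) in knockouts, with 419 genes at an unadjusted p under 0.05. DESeq2 called 7 of 13194 genes lower (0.0531%) and 0 higher (0.0%), none of them a gene of the lists used here, and limma-voom called 0. In 49 genes, or 0.371%, every knockout lay below every control. None of the 10 members was among the genes that either tool called, and in all of them the groups overlapped.

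With all libraries each of the 10 members had a fitted mean in knockouts below that of controls, as had 6681 of 13198 genes tested. The median of the members' log2 fold changes was -0.87, against 0.00 over all genes tested. The members were chosen with this difference already seen, so nothing is read from the comparison. Ucp1 had a log2 fold change of -3.77 (SE 1.32), from 4.97 ± 7.11 CPM (SD, n = 5) in controls and 0.355 ± 0.262 CPM (n = 4) in knockouts. Cidea stood at -2.17 (SE 0.80), from 6.75 ± 7.53 and 1.48 ± 0.493 CPM. For both genes the SD of the controls exceeded their mean. Among white markers the values were -1.07 (SE 0.40) for Plin1, -0.88 (SE 0.43) for Lep, -0.88 (SE 0.37) for Retn, -0.86 (SE 0.45) for Cidec and -0.85 (SE 0.38) for Adipoq. Fabp4 stood at -0.48 (SE 0.30), Elovl3 at -0.41 (SE 0.36) and Plin4 at -0.26 (SE 0.14).

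Without controls 4 and 5 the median over the 9 members that could still be fitted was -0.15. Both libraries were set apart with their high marker levels already seen, so a move toward 0 follows from that choice. Ucp1 no longer passed the filter on low counts, and it stood at 0.401 ± 0.19 CPM in controls 1 to 3 (n = 3) and 0.355 ± 0.262 CPM in 4 knockouts. In this fit Cidea moved to -0.15 (SE 0.30), Adipoq to -0.09 (SE 0.20), Cidec to -0.06 (SE 0.37), Elovl3 to -0.06 (SE 0.36) and Retn to -0.22 (SE 0.21). Fabp4 stood at 0.08 (SE 0.19), on the other side of 0. Lep kept the value farthest from 0, at -0.52 (SE 0.41), followed by Plin1 at -0.39 (SE 0.27) and Plin4 at -0.16 (SE 0.16). Knockout 2 was the lowest library for Lep and Plin1, and also for Adipoq, Plin4 and Cidec.

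The log2 ratio of Ucp1 to Adipoq counts, with 0.5 added to both, averaged -4.45 ± 1.96 in 5 controls and -6.04 ± 1.23 in 4 knockouts. In controls 1 to 3 it averaged -5.77 ± 0.91. The difference of knockouts from controls was -1.59 with all libraries and -0.26 without controls 4 and 5.

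**Figure D3:**
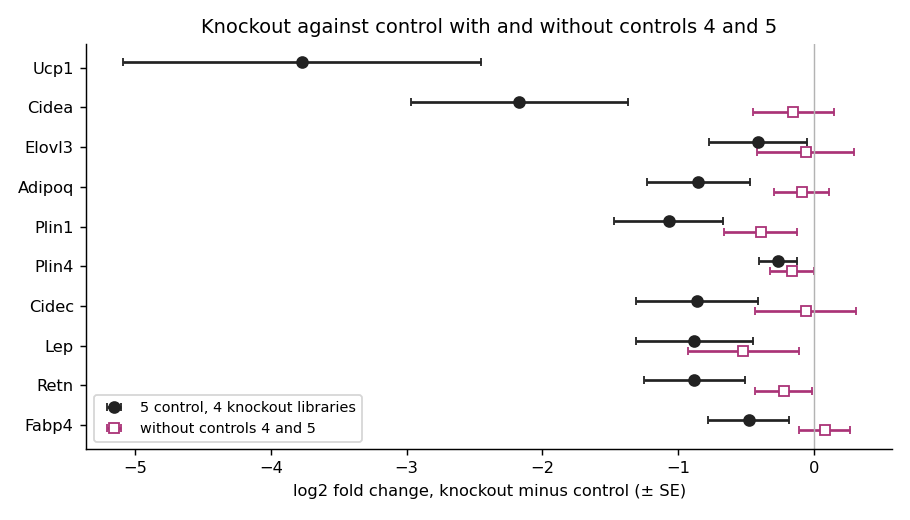
Log2 fold change (x axis, knockout minus control, bars ± SE) of each marker (y axis), from the fit on 5 control and 4 knockout libraries (filled circles) and from the fit without controls 4 and 5 (open squares; Ucp1 fell under the count filter there and has none). Cidea moves from -2.17 to -0.15 and Adipoq from -0.85 to -0.09.

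White markers also varied together among the other libraries. Over the 7 libraries other than controls 4 and 5, the 21 pairs of white markers had a median Pearson correlation of log2 CPM of 0.75 (range 0.29 to 0.95), closest between Adipoq and Cidec (0.95). Control 3 was the highest of the 7 libraries for each of the 7 white markers, and knockout 2 was the lowest of all 9 for Adipoq, Plin1, Plin4, Cidec and Lep. Against the mean of the other members over these 7 libraries, Lep reached 0.95, while Ucp1 stood at -0.07, Cidea at 0.03 and Elovl3 at 0.12. Ucp1 had only 2 to 16 counts in these libraries, so its level there is known with little precision. These correlations describe libraries that also share depth and muscle RNA, and they carry no test.

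The genes most like the members over all 9 libraries were named by their Pearson correlation with the mean standardised level of the 10 members, among 12061 other genes of at least 1 CPM. They were Fads3, of the fatty acid desaturase family (0.96, and 0.86 over the 7 libraries), the lipid antigen presenting molecule Cd1d1 (0.96 and 0.77), the melanocortin receptor accessory protein Mrap (0.95 and 0.79), the retinol carrier Rbp4 (0.95 and 0.76) and the secreted matrix protein Smoc1 (0.95 and 0.85). Next came Dgat2, which makes the last step of triglyceride synthesis (0.95 and 0.71), the transcription factor Cebpd (0.94 and 0.77), the carboxylesterase Ces1d (0.94 and 0.65), the amino acid transporter Slc7a10 (0.93 and 0.80) and the hormone-sensitive lipase Lipe (0.93 and 0.83). Dgat2, for instance, stood at 33.0, 42.2, 62.2, 141 and 124 CPM in controls 1 to 5 and at 48.5, 43.9, 62.8 and 39.8 CPM in knockouts 1 to 4. A correlation of at least 0.9 was reached by 29 genes over 9 libraries and by 11 over 7, with 2 genes in both. Farthest in the other direction were Klk1b22 (-0.93), Scara3 (-0.91), the replication factor subunit Rfc3 (-0.91), endothelin 3 Edn3 (-0.89) and the noradrenaline transporter Slc6a2 (-0.89). Klk1b22 belongs to a family of near-identical kallikrein genes, at 3.39 CPM or less, so its counts are uncertain.

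Other adipocyte genes, from a list that leaves out the members, showed the same 2 libraries in part. By edgeR 0 of 31 tested members of this list passed in either direction, and 0 had an unadjusted p under 0.05. Their median log2 fold change was -0.28, with 28 below 0, and 0.01 without controls 4 and 5, with 12 below 0. Over all genes tested 6681 of 13198 were below 0, and 6425 of 13298 without controls 4 and 5. Lipoprotein lipase Lpl stood at -0.23 (SE 0.18), the glycerol phosphate dehydrogenase Gpd1 at -0.13 (SE 0.13), the fatty acid transporter Cd36 at -0.24 (SE 0.12) and the triglyceride lipase Pnpla2 at -0.09 (SE 0.17). Muscle fibres make these 4 genes too. In 15 of 31 genes controls 4 and 5 both lay above the other 7 libraries, against 2.25% of all genes tested. All lists were written with earlier results of these data known, so nothing is read from this count or from those of the lists below. The adipsin gene Cfd, chosen after its values were seen, was at 53.2, 74.3, 110, 285 and 198 CPM in controls 1 to 5 and at 113, 62.5, 152 and 84.3 CPM in knockouts 1 to 4.

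Among 12 transcription factors of adipocytes 0 passed by edgeR, 1 had an unadjusted p under 0.05, and the median was -0.11 (-0.01 without controls 4 and 5). The most abundant were Rxra (0.06, SE 0.12), the partner of PPAR gamma, Cebpb (-0.11, SE 0.26), Cebpd (-0.37, SE 0.22) and Klf15 (-0.09, SE 0.16). In 4 of 12 both libraries led, namely Pparg, Cebpa, Cebpd and Tle3, against 2.25% of all genes tested. Pparg, the master regulator of adipocyte formation and named here after its values were seen, was at 4.13, 6.76, 7.92, 13.2 and 8.63 CPM in controls 1 to 5 and at 5.49, 4.42, 4.6 and 5.14 CPM in knockouts 1 to 4. Prdm16 and Ebf2, factors of brown adipocyte identity that were also named after their values were seen, stood at -0.01 (SE 0.15) and -0.11 (SE 0.31).

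Further genes of brown and beige fat gave a mixed picture. By edgeR 0 of 18 tested genes passed, 1 had an unadjusted p under 0.05, and the median log2 fold change was -0.06 (0.15 without controls 4 and 5). The most abundant, Cox8b (0.05, SE 0.21), Cox7a1 (0.06, SE 0.18), Aldh1a1 (-0.03, SE 0.12) and the nucleoside transporter Slc29a1 (0.12, SE 0.10), had their highest library elsewhere than control 4. It was control 5 for Cox8b, at 470 CPM, and for Cox7a1, at 263 CPM, against 396 and 240 CPM in the next library, knockout 3. The respiratory chain subunits Cox8b and Cox7a1 are muscle genes as well. In 3 of 18, Kcnk3, Otop1 and Clstn3, named after their values were seen, controls 4 and 5 both led, against 2.25% of all genes tested. Genes of this list that fell under the count filter are not in that count. Among them Slc27a2 was at 2.95 and 0.947 CPM in controls 4 and 5 and at 0.194 CPM or less elsewhere. Ckmt1, Epsti1 and Cpt1b, also under the filter, had their highest library outside controls 4 and 5. These genes too were named after their values were seen. The potassium channel Kcnk3 was at 1.18, 1.74, 1.2, 7.26 and 2.74 CPM in controls 1 to 5 and at 1.64, 1.31, 1.8 and 1.43 CPM in knockouts 1 to 4, so that control 4 stood apart more than control 5, as for Ucp1.

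Lipogenic enzymes were split. By edgeR 0 of 14 passed and 3 had an unadjusted p under 0.05. Of the 14 log2 fold changes 10 were below 0 and 4 above, against 6681 of 13198 below 0 over all genes tested. Their median was -0.64 (0.04 without controls 4 and 5). In 6 of 14 genes controls 4 and 5 both lay above the other 7 libraries, against 2.25% of all genes tested. The most abundant were the desaturase Scd1 (-1.43, SE 0.46), the carboxylase Acacb (-0.14, SE 0.11), the malic enzyme Me1 (0.04, SE 0.11) and the fatty acid synthase Fasn (-1.53, SE 0.65). Fasn was at 80.3, 115, 85.4, 736 and 244 CPM in controls 1 to 5 and at 63.8, 113, 116 and 56.3 CPM in knockouts 1 to 4. Control 4 exceeded control 5 here, as it did for Ucp1, Cidea and Plin1 and not for Lep or Retn.

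Markers of other cell types were counted in the same way, where 2.25% of all genes tested had both libraries on top, so that a count of 0 in lists this short sets none of them apart. In 0 of 11 tested genes of fibroblasts and adipocyte progenitors, 0 of 7 of endothelium, 0 of 7 of macrophages, 0 of 5 of lymphocytes, 0 of 7 of Schwann cells, 0 of 4 of red cells, 0 of 2 of skin and 0 of 10 of muscle fibres were both libraries above the other 7. The summed level of the endothelial genes was 279 to 307 CPM in controls and 308 to 328 CPM in knockouts, and that of the macrophage genes was 111 to 148 and 114 to 154 CPM. The fibroblast and progenitor genes summed to 1660 to 2160 CPM in controls and 1520 to 2730 CPM in knockouts, and the Schwann cell genes to 208 to 510 and 289 to 476 CPM. The lymphocyte genes summed to 7.08 to 10.2 CPM in controls and 6.05 to 9.69 CPM in knockouts, with the B cell gene Ms4a1, named after its values were seen, at 0.0907 CPM or less in each library. Erythroid genes summed to 170 to 211 CPM in controls and to 197, 179, 522 and 294 CPM in knockouts 1 to 4. Knockouts 1 and 2 thus lay within the range of the controls. Skin genes summed to 3.67 to 189 CPM in controls and 4.65 to 113 CPM in knockouts. By edgeR 0 genes of these lists passed in either direction, with medians of 0.10 for fibroblasts and progenitors, 0.13 for endothelium, 0.07 for macrophages, -0.07 for lymphocytes, -0.21 for skin, 0.13 for Schwann cells, 1.27 for erythroid genes and 0.18 for muscle fibres. At an unadjusted p under 0.05 there were 3 of 4 erythroid genes and 1 each of the fibroblast, macrophage and Schwann lists. Over all genes tested there were 419 of 13198, and nothing is read from these counts.

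**Figure D4:**
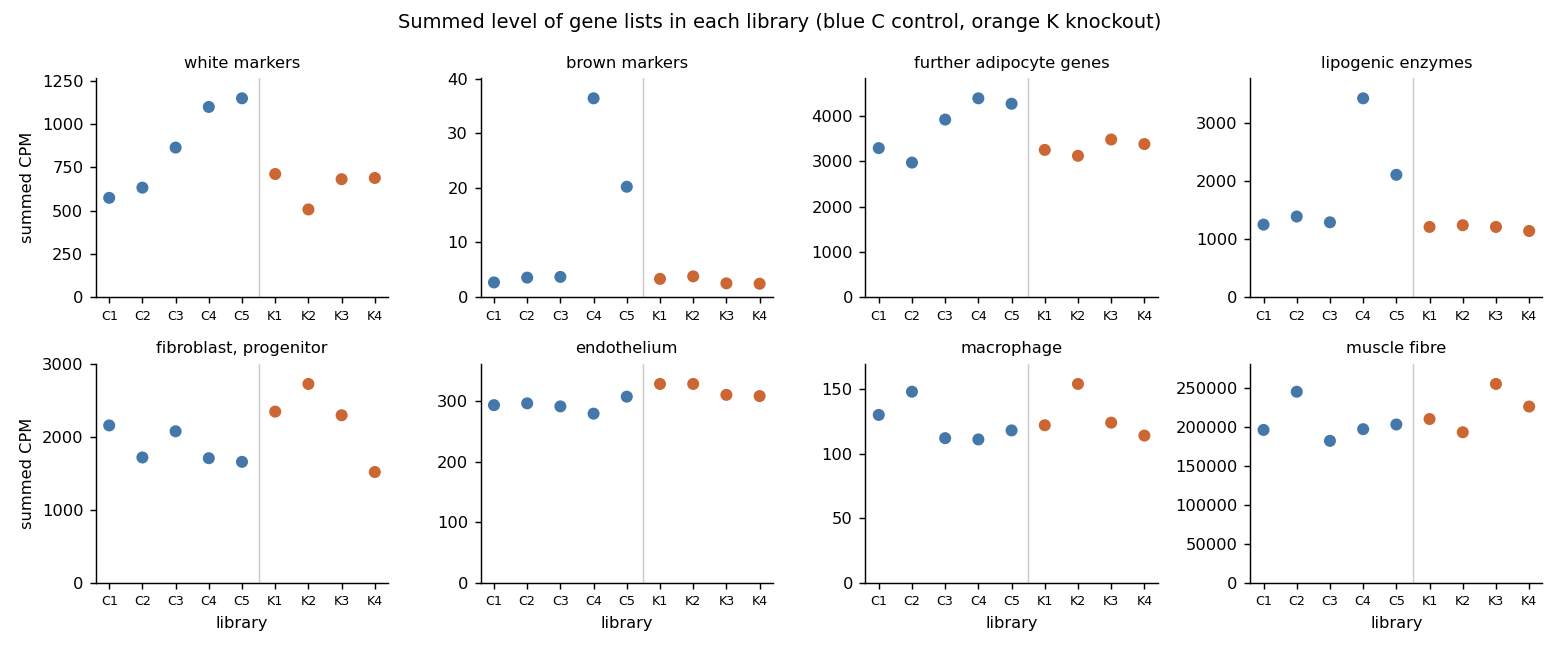
Summed CPM (y axis, linear from 0) of 8 gene lists in each library (x axis, C controls, K knockouts), each point 1 library. The white and brown markers and the lipogenic enzymes peak in controls 4 and 5, while the endothelial genes stay between 279 and 328 CPM. Plin4 and Fabp4 make up most of the white sum.

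Libraries also differed in how level depended on transcript length. The slope of log2 CPM, centred per gene, on each doubling of transcript length was computed over 11978 genes. For controls 1 to 5 it was 0.214, -0.009, 0.007, 0.127 and -0.172. For knockouts 1 to 4 it was 0.048, 0.058, -0.181 and -0.09. Controls 4 and 5 had slopes of opposite sign and were both high in Adipoq, Cidec and Fabp4. With transcript length in bases, the members higher in control 5 were Fabp4 (896), Retn (1139), Elovl3 (1881), Lep (3259) and Plin4 (5756). Those higher in control 4 were Cidea (1115), Adipoq (1292), Ucp1 (1636), Cidec (1720) and Plin1 (2817). The part of this slope in the differences between controls 4 and 5 was not tested. No word of 50 bases in the transcripts of the members occurred in another gene, except 0.289% of those of Plin1.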

How the data were processed

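Per the labels' protocols, RNA integrity numbers were 6.7 or higher, and NuGEN Ovation amplification preceded the sequencing libraries. The deposited values are raw read counts per gene symbol, with no normalization by the authors. The submitters' processing notes list TopHat, Bowtie 0.12.7, HTSeq 0.6.1, bcl2fastq 1.8.4 and mm9. Annotation and strand setting are not stated there, so overlapping and antisense genes cannot be told apart.

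The members and lists were chosen with earlier results of these data known. The counts went into edgeR 4.0.16 under R 4.3.3: filterByExpr with a minimum count of 10 kept 13198 genes, libraries were scaled by TMM, and the robust quasi-likelihood F-test had genotype as its single term. P-values were adjusted by Benjamini-Hochberg over all genes, with 0.05 as the limit. A negative log2 fold change means a lower level in knockouts, its SE was taken from the F statistic, and CPM are mean ± SD. Since libraries may not be separate animals, p-values reflect spread between libraries, which may be technical. Ucp1 passed the filter with 10 or more counts in 4 of 9 libraries. Libraries of a group were no duplicates, with a chi-square per degree of freedom of 16.7 to 92.2 over 16 pairs. Depth limits a level to a floor of 3 counts, or 0.116 to 0.159 CPM by library.

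Of 162 symbols in 14 lists, members included, 160 were found in the table. The text names all members, up to 4 genes of highest mean CPM per list, any called gene, and the 10 genes most and 5 least like the members (log2 CPM with a prior count of 2); others are marked as named after their values were seen. Transcripts came from GENCODE M21 and promoters from RefSeq, both on GRCm38, used for lengths and sequence alone. The fit was tested on simulated counts with known changes. Alternatives were RLE, upper quartile and total scaling, DESeq2 1.42.0, limma-voom (limma 3.58.1), 2 other filters (none, or 50 counts in 4 libraries), a non-robust fit, libraries left out, and a block on the label number. Intervals were computed with scipy 1.17.1.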

Additional observations from a re-analysis of the deposited data

Results flagged for a closer look

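In 48 groups of values, made of the members and the summed lists in controls and in knockouts, 2 had a library far from the rest of its group, where chance gives about 1 in 20. The summed level of the 7 white markers was 507 CPM in knockout 2, against 682 CPM in the next lowest knockout. Most of that sum was Plin4 (292 CPM) and Fabp4 (172 CPM), which muscle and capillary endothelium also make. The summed level of the skin keratinocyte genes was 189 CPM in control 2, against 5.09 CPM in the next control, while knockouts 1 and 2 stood at 41.7 and 113 CPM.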

How the results depend on the processing

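Leaving out controls 4 and 5 together moved the values most. These 2 libraries were set apart with their high marker levels already seen, so a move toward 0 follows from that choice. The median log2 fold change went from -0.87 to -0.15 for the members and from -0.86 to -0.16 for the white markers. For the brown markers it went from -2.17 to -0.11 (Cidea and Elovl3 alone, since Ucp1 fell under the filter). With 1 library left out, the median lay between -1.07 and -0.52 for the members, between -1.06 and -0.52 for the white markers and between -2.42 and -0.90 for the brown markers. The value of -0.90 came without control 4, and there, as without control 2 or control 5, Ucp1 fell under the filter and the median is over Cidea and Elovl3 alone, so it cannot be set against -2.17 over 3 markers. The Ucp1 to Adipoq difference lay between -2.17 and -0.95 in these fits, at -0.65 without control 5 and knockouts 3 and 4, and at -0.75 with Cidea in place of Ucp1. Among the alternatives in which each member could be fitted (14 of 21 for Ucp1, 20 for Cidea and Elovl3, 21 for the rest), the log2 fold change turned positive only for Fabp4, at 0.08 without controls 4 and 5. Limma-voom, which weights libraries, put Ucp1 at -1.69. Under other scalings and filters the members' median stayed between -0.90 and -0.85. DESeq2 called 7 genes in place of 0. With a replicate block on controls 1 to 4 and knockouts 1 to 4, edgeR called 1 gene, Fosb, named because the count is small, against 0 on the same libraries unpaired. The brown markers' median on these libraries, over Cidea and Elovl3 alone because Ucp1 fell under the filter, was -0.59 under the block and -1.02 without it. The labels give no pairing, and deviations of same-numbered libraries correlated at 0.42, 0.04, 0.08 and -0.07, so the numbers are not taken to pair the libraries. The number of genes with a correlation of at least 0.9 with the members fell from 29 to 11 over 7 libraries. The filter of at least 50 counts removed every brown marker, so no brown median exists there. Ucp1, at 2 to 16 counts outside controls 4 and 5, is the member that depth limits most.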
